A study of Mus musculus with 8 samples.

Results

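Expression of 10 genes of aspartate and alanine transamination and of the malate shuttle was examined in newborn mouse skeletal muscle by total RNA sequencing. The genes were Got1, Got2, Mdh1, Mdh2, Slc25a11, Slc25a12, Slc25a13, Gpt, Gpt2 and Glud1, and each had 1 row among the 23336 gene rows of the count table. They were chosen by name from the pathway, with the fold changes and calls of the comparison below already known, the low level of Got1 among them. Their differences between the groups are therefore a description of these libraries and give no independent support to a change of the pathway. The mice compared were 4 C57BL/6 mice at postnatal day 2 that carried the ΔDMR1-U2 deletion at Igf2, and 4 wild-type mice of the same strain and age. Igf2 is the imprinted gene of insulin-like growth factor 2. All were labelled female, but 1 ΔDMR1-U2 library nearly lacked Xist, an RNA of the silenced X chromosome (values below). The groups may thus differ in sex, which was not tested. The parent of origin of the deletion and its coordinates were not given in the labels. The study's text names 4 mice per group, without their litters, and p-values measure the spread between these samples.

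Aspartate aminotransferase moves an amino group between aspartate and glutamate, and malate dehydrogenase interconverts malate and oxaloacetate. Each enzyme has a cytosolic form, Got1 and Mdh1, and a mitochondrial form, Got2 and Mdh2, encoded by separate genes. Together with the malate carrier Slc25a11 and the aspartate-glutamate carriers Slc25a12 and Slc25a13 they make up the malate-aspartate shuttle, which brings the reducing equivalents of cytosolic NADH into mitochondria in muscle, heart and liver. Gpt and Gpt2, the cytosolic and mitochondrial alanine aminotransferases, pass amino groups from glutamate to pyruvate, the route by which muscle exports nitrogen as alanine. Glud1, glutamate dehydrogenase, releases ammonia from glutamate in mitochondria and feeds 2-oxoglutarate back.

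Total counts ranged over 16781493 to 20060129 per library for ΔDMR1-U2 muscle and over 16084413 to 26913636 for wild-type muscle. ΔDMR1-U2 library 1A had 2.50 CPM (counts scaled to a common library size) of Xist, the RNA that coats the silenced X chromosome, although it is labelled female, against 1270 to 1895 CPM in the other 7 libraries. ΔDMR1-U2 library 1B had 602 CPM of summed white adipocyte markers. The sums were 234 to 266 CPM in the other ΔDMR1-U2 libraries and 179 to 246 CPM in wild-type, and most of each was Fabp4. The log2 fold changes of the 10 genes are given with and without both libraries. All 10 skeletal muscle markers were detected, and their sum was 173225 to 195262 CPM in ΔDMR1-U2 and 189591 to 223926 CPM in wild-type, with 0 of 10 called. Brown adipocyte markers summed to 17.2 to 32.5 CPM in ΔDMR1-U2 and 11.6 to 12.6 CPM in wild-type, most of it Cidea, which was called higher, while Ucp1, the defining marker, had 0 to 3 counts. Schwann cell markers summed to 107 to 168 CPM against 48.7 to 98.0 CPM, with 0 of 5 called. Hepatocyte markers, 0 of 6 of which passed the filter on low counts, summed to 0.418 to 1.33 CPM in ΔDMR1-U2 and 0.844 to 3.53 CPM in wild-type. In the remaining lists, for cardiac muscle, fibroblasts, endothelium, red cells, macrophages, cartilage and keratinocytes, the summed levels of the groups overlapped and no marker was called, with Hba-a2 and Hbb-b1 at 0 counts in every library.

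Levels were first compared per kilobase of exon, with lengths from the GENCODE vM21 annotation. Mdh1 had the highest level, 106 ± 4.63 CPM per kb in ΔDMR1-U2 and 128 ± 5.16 CPM per kb in wild-type (SD, n = 4 each). Slc25a11 followed at 53.3 ± 3.29 against 64.2 ± 5.57 CPM per kb, and Mdh2 at 40.9 ± 3.21 against 49.7 ± 2.67 CPM per kb. The cytosolic malate dehydrogenase was thus the most abundant transcript of the group in all 8 libraries. Got2 was at 32.6 ± 0.785 against 37.1 ± 2.02 CPM per kb, Glud1 at 29.0 ± 1.65 against 27.4 ± 1.68 CPM per kb and Slc25a12 at 20.6 ± 1.45 against 24.2 ± 1.86 CPM per kb. Got1 was at 16.3 ± 0.709 CPM per kb in ΔDMR1-U2 and 25.0 ± 1.60 CPM per kb in wild-type. In wild-type muscle the ranges of Got1, Slc25a12 and Glud1 overlapped, so their order there was not resolved. In ΔDMR1-U2 muscle every library had less Got1 than Slc25a12, 15.5 to 17.0 against 19.0 to 22.4 CPM per kb. Gpt2 was at 6.47 ± 0.986 CPM per kb in ΔDMR1-U2 and 7.08 ± 0.709 CPM per kb in wild-type, and Gpt at 3.64 ± 0.862 against 3.68 ± 0.832 CPM per kb. Slc25a13 was the lowest, at 1.43 ± 0.0498 against 1.4 ± 0.162 CPM per kb. Of the aspartate-glutamate carriers, the transcript of Slc25a12, known as the form of muscle and brain, was thus far above that of Slc25a13, known as the form of liver.

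**Figure D1:**
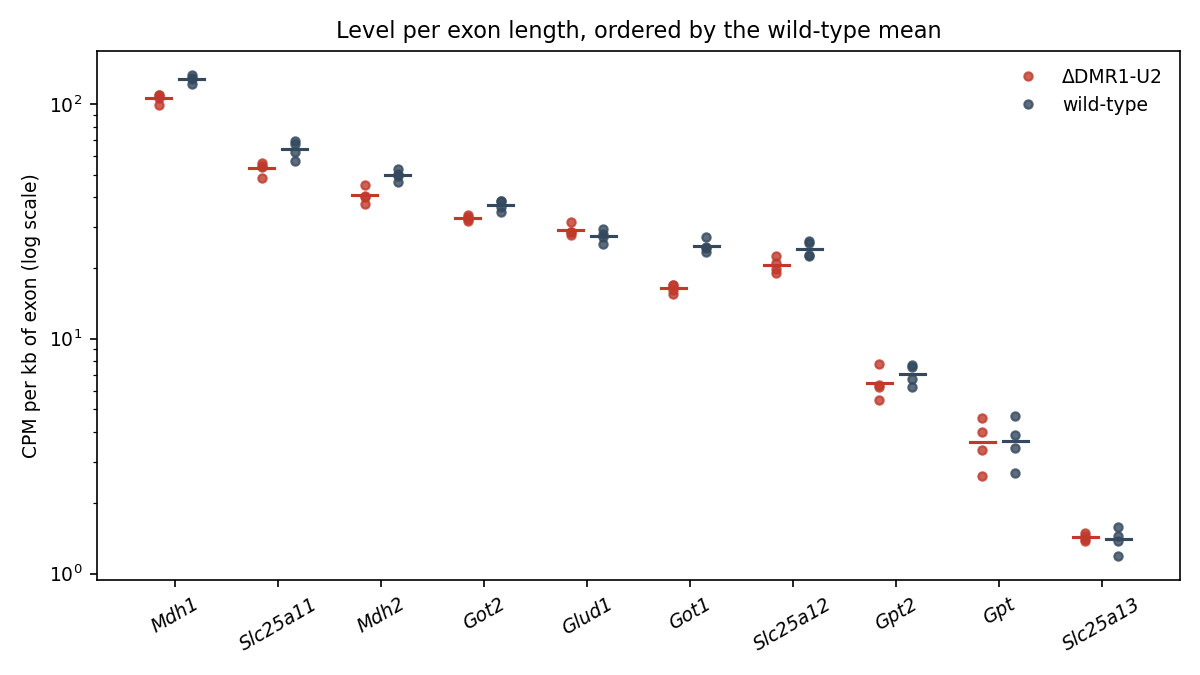
Level per exon length (CPM per kb, log scale) of each gene in each library, ΔDMR1-U2 left of wild-type, with a bar at the mean of 4 libraries. Mdh1 lies highest and Slc25a13 lowest, and Got1 has the widest separation between the groups.

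Got1, the cytosolic aspartate aminotransferase, had 42.9, 43.1, 39.3 and 40.8 CPM in ΔDMR1-U2 libraries 1A, 1B, 2 and 3, against 69.2, 59.8, 61.8 and 62.8 CPM in wild-type libraries 1A, 1B, 2 and 3. The counts behind these values were 658 to 839 a library for ΔDMR1-U2 and 1066 to 1653 a library for wild-type. The groups did not overlap, and the highest ΔDMR1-U2 library lay well below the lowest wild-type one. The mean was 41.5 ± 1.80 CPM in ΔDMR1-U2, against 63.4 ± 4.06 CPM in wild-type, 1.53-fold lower in ΔDMR1-U2. The log2 fold change of ΔDMR1-U2 over wild-type was -0.61 with a standard error of 0.07 (95% interval -0.76 to -0.46). In edgeR's quasi-likelihood test its p, adjusted by Benjamini-Hochberg over 15241 genes, was 0.00752, past the threshold of 0.05 used for every call here. Got1 was the only gene of the 10 that edgeR called lower and 0 were called higher, beside 0.617% of all tested genes called lower and 0.512% called higher. For Got1 the authors' deposited table lists a ratio of 1.53, wild-type over ΔDMR1-U2, with an adjusted p of 0.000417, the only 1 of the 10 genes under 0.05 there, where 0.609% of genes were under that threshold and lower in ΔDMR1-U2.

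The call of Got1 did not depend on any single library. Across the 8 fits that each left out 1 library, its log2 fold change was between -0.63 and -0.57 and its adjusted p between 0.0059 and 0.0389 (edgeR). Without ΔDMR1-U2 libraries 1A and 1B together, the log2 fold change was -0.66 (adjusted p = 0.0244, edgeR), in a fit where 0.0319% of genes were called lower. In the mm10 assembly Got1 (ENSMUSG00000025190.13) lies on the minus strand of chromosome 19 from 43499752 to 43524605, and the annotation places no gene on the opposite strand there.

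The 250 bases before the start site of Got1, the 1 gene of the group that was called, are shown beside those of Glud1, whose level was not lower, to compare what letters the promoters hold. Both are from RefSeq on GRCm38.p6, Got1 at chr19:43524606-43524855 on the minus strand and Glud1 at chr14:34310477-34310726 on the plus strand. Capitals mark matches, on either strand, to GGGCGG (the GC box of Sp factors), CCAAT (the box bound by NF-Y), CACGTG (the E-box), TGACGTCA (the CREB element), AAGGTCA (the element of oestrogen-related receptors) and TATAAA (the TATA box).
Got1: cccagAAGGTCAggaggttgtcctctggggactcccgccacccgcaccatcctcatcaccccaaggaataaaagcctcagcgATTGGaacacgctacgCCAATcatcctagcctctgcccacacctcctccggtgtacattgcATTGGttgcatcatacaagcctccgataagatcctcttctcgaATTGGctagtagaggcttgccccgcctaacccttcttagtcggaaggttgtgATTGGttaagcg
Glud1: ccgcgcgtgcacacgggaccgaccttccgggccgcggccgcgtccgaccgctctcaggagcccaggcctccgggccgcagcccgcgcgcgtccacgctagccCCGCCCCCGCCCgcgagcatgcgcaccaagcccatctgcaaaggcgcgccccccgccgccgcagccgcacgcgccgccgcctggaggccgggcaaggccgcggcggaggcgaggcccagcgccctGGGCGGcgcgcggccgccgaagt
The Got1 window held 5 CCAAT boxes, beginning 168, 152, 107, 64 and 12 bases before the start site, and 1 AAGGTCA at 245 bases. The Glud1 window held 3 GC boxes and none of the other motifs, and its GC content was 82.0% against 54.4% for Got1. Of 32851 RefSeq promoter windows of this length, 33.8% held a CCAAT, 32.7% a GGGCGG, 12.4% a TATAAA, 6.02% a CACGTG, 4.08% an AAGGTCA and 1.55% a TGACGTCA, and 0.213% held at least 5 CCAAT boxes. Windows were found for 9 of the 10 genes, all but Gpt. Among them CCAAT was also in Mdh1, Slc25a11 and Slc25a13, with 1 or 2 boxes each, GGGCGG in Mdh1, Mdh2, Slc25a11, Gpt2 and Glud1, TGACGTCA in Mdh2, CACGTG in Slc25a13 and TATAAA in Got2. The Slc25a12 window held none of them. These matches describe the letters of the windows, and no measurement here bears on binding. The outermost GENCODE start lay 433, 440, 169 and 146 bases upstream of the RefSeq start for Mdh1, Slc25a11, Mdh2 and Got2. The windows of Mdh1 and Slc25a11 thus lay inside the annotated gene, and those of Mdh2 and Got2 partly did. For Got1 and Glud1 both starts were the same.

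The other enzymes of the shuttle and its 2 more abundant carriers had smaller differences, none of them called by edgeR. Got2, the mitochondrial aspartate aminotransferase, had 153, 162, 155 and 159 CPM in ΔDMR1-U2 libraries 1A, 1B, 2 and 3, against 187, 167, 175 and 187 CPM in the wild-type libraries. Mdh1 had 273, 254, 279 and 279 CPM in ΔDMR1-U2, against 341, 332, 310 and 330 CPM in wild-type. Mdh2 had 161, 143, 134 and 145 CPM in ΔDMR1-U2, against 176, 165, 188 and 179 CPM in wild-type. In all 3 genes every ΔDMR1-U2 library lay below every wild-type library, by a narrow margin for Got2 and Mdh2. Slc25a11, which exchanges malate for 2-oxoglutarate, had 114, 103, 119 and 116 CPM in ΔDMR1-U2, against 147, 133, 121 and 143 CPM in wild-type. Slc25a12, which exchanges aspartate for glutamate, had 140, 164, 146 and 154 CPM in ΔDMR1-U2, against 191, 166, 166 and 188 CPM in wild-type. Their groups also did not overlap, though ΔDMR1-U2 library 1B nearly reached the lowest wild-type library in Slc25a12, as library 2 did in Slc25a11.

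**Figure D2:**
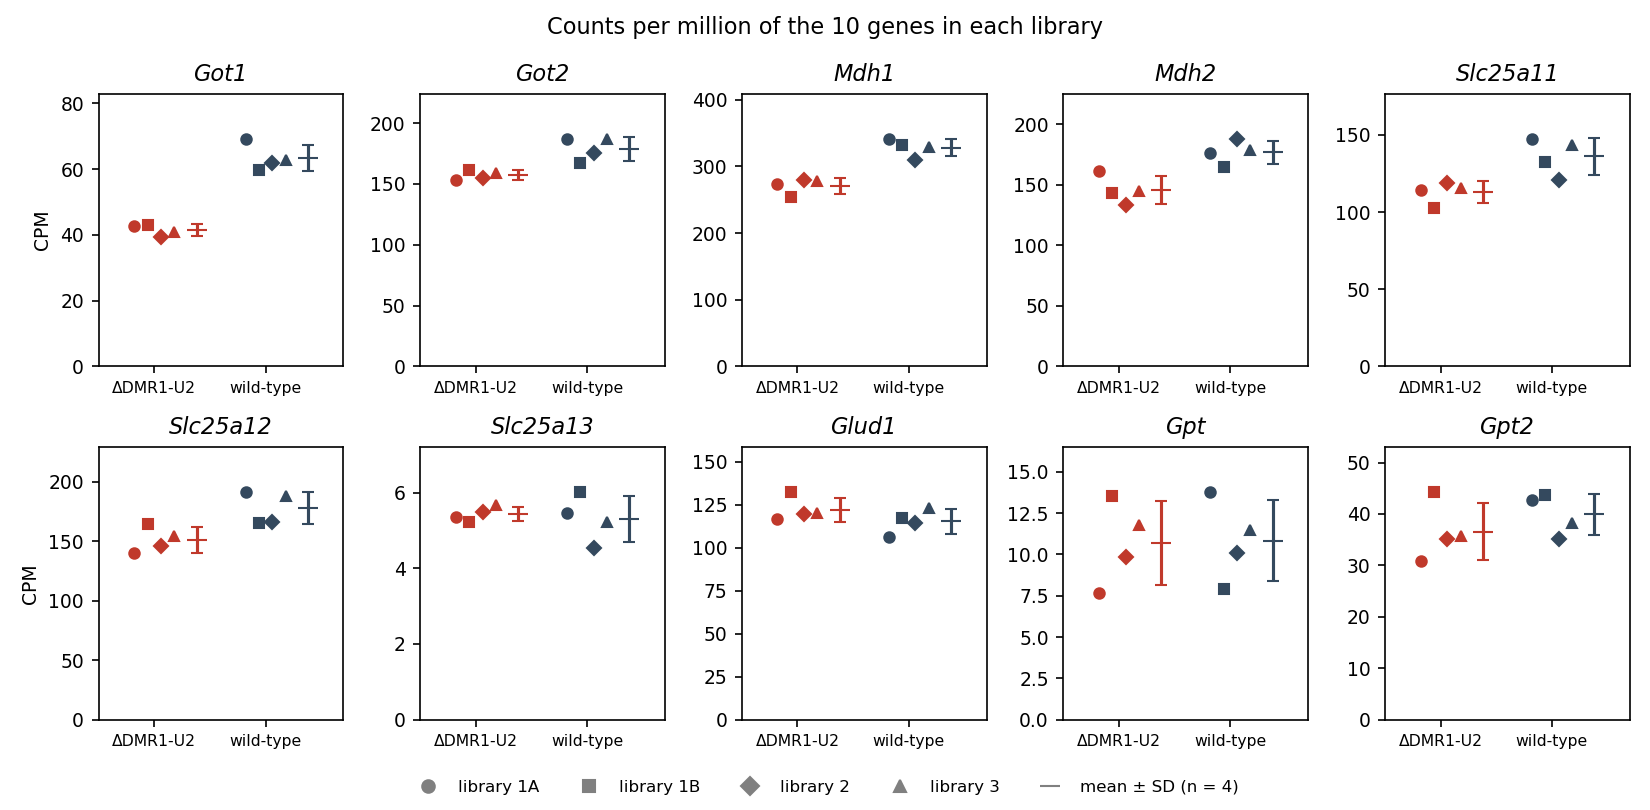
CPM of the 10 genes in each library, ΔDMR1-U2 left and wild-type right, with the mean and SD of 4 libraries beside the points; each panel has its own axis from 0. Got1 is at 39.3 to 43.1 CPM in ΔDMR1-U2 and 59.8 to 69.2 CPM in wild-type, while Gpt, Gpt2, Glud1 and Slc25a13 overlap between the groups.

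The log2 fold changes of ΔDMR1-U2 over wild-type were -0.28 for Mdh2, -0.28 for Mdh1, -0.27 for Slc25a11, -0.23 for Slc25a12 and -0.185 for Got2, with standard errors of 0.06 to 0.08. As linear sizes these are 17.6%, 17.4%, 17%, 15% and 12% less in ΔDMR1-U2, beside 34.5% less for Got1. None of the 5 was called over all genes, with adjusted p values of 0.0581 for Mdh1, 0.0769 for Mdh2, 0.0953 for Slc25a11, 0.122 for Slc25a12 and 0.126 for Got2 (edgeR). DESeq2 called 4 genes lower, Got1, Mdh1, Mdh2 and Slc25a11 (adjusted p = 2.77e-11, 0.00101, 0.0136 and 0.0331), while it called 3.32% of all its tested genes lower. Without ΔDMR1-U2 libraries 1A and 1B, the log2 fold changes of the 5 genes were between -0.35 for Mdh2 and -0.19 for Got2, with adjusted p values of 0.123 to 0.338 (edgeR). Counting Got1, 6 of the 10 genes had groups without overlap, all lower in ΔDMR1-U2, beside 6.38% of all tested genes. The median log2 fold change of the 10 genes was -0.21, and that of all tested genes was -0.001.

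In mm10, Mdh1 lies on chromosome 11 from 21556787 to 21572367 and Slc25a11 on chromosome 11 from 70644196 to 70647479, where the protein-coding genes Wdpcp and Rnf167 overlap them on the opposite strand. Mdh2 lies on chromosome 5 from 135778480 to 135790398 with no gene opposite. Got2, on chromosome 8 from 95864134 to 95888547, has Gm45760 on the opposite strand and a processed pseudogene elsewhere in the genome. Slc25a12, on chromosome 2 from 71271063 to 71367749, has a pseudogene opposite it. Without the strand setting of the counting, reads of overlapping genes cannot be told apart, so these levels are less certain for all but Mdh2. Pseudogene copies elsewhere were searched only by the names of the genes, so copies under other names would be missed, for Mdh2 too.

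**Figure D3:**
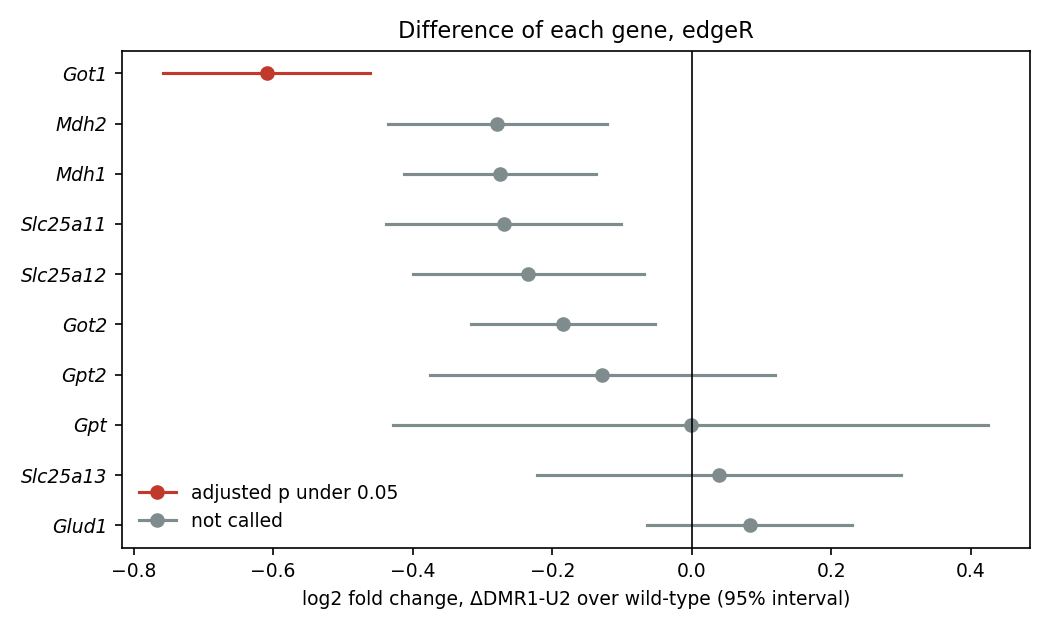
Log2 fold change of ΔDMR1-U2 over wild-type with its 95% interval for each of the 10 genes, from edgeR. The interval of Got1, -0.76 to -0.46, lies below those of the other genes, the lowest of which reaches -0.44.

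Glutamate dehydrogenase and the alanine aminotransferases had overlapping groups. Glud1 had 116, 132, 120 and 120 CPM in ΔDMR1-U2 libraries 1A, 1B, 2 and 3, against 106, 117, 115 and 123.1 CPM in the wild-type libraries. Its log2 fold change was 0.08 with a 95% interval of -0.06 to 0.23 (adjusted p = 0.499, edgeR). Gpt2 had 31.0, 44.2, 35.2 and 35.8 CPM in ΔDMR1-U2, against 42.7, 43.8, 35.2 and 38.2 CPM in wild-type. ΔDMR1-U2 library 1B was the highest of all 8 for Gpt2 and for Glud1. The log2 fold change of Gpt2 was -0.13 with a 95% interval of -0.38 to 0.12 (adjusted p = 0.536, edgeR), and it was -0.23 without library 1B and -0.05 without library 1A. Without both libraries, the log2 fold change was -0.17 for Gpt2 and 0.05 for Glud1 (adjusted p = 0.511 and 0.805, edgeR).

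Gpt, the cytosolic alanine aminotransferase, varied most among the 10 genes. It had 7.66, 13.6, 9.85 and 11.8 CPM in ΔDMR1-U2 libraries 1A, 1B, 2 and 3, against 13.8, 7.92, 10.1 and 11.5 CPM in the wild-type libraries, from 150 to 270 counts each. The coefficient of variation was 23.7% in ΔDMR1-U2 and 22.6% in wild-type, against 2.40% to 15.2% for the other genes. Its log2 fold change was -0.002 with a 95% interval of -0.43 to 0.43 (adjusted p = 0.997, edgeR), so a change of the size seen in Mdh1 would lie within the error. Slc25a13, with 84 to 157 counts per library, had 5.23 to 5.67 CPM in ΔDMR1-U2 and 4.53 to 6.01 CPM in wild-type. Its log2 fold change was 0.04 with a 95% interval of -0.22 to 0.30 (adjusted p = 0.880, edgeR). Without ΔDMR1-U2 libraries 1A and 1B, the log2 fold change was 0.07 for Slc25a13 and 0.02 for Gpt (adjusted p = 0.875 and 0.983, edgeR).

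Ratios of raw counts within a library do not depend on how libraries are scaled. The ratio of Got1 to Got2 was 0.279, 0.266, 0.253 and 0.257 in ΔDMR1-U2 libraries 1A, 1B, 2 and 3, against 0.371, 0.358, 0.353 and 0.336 in the wild-type libraries. The groups did not overlap, with means of 0.264 ± 0.0117 in ΔDMR1-U2 and 0.354 ± 0.0144 in wild-type (SD, n = 4 each). Of the 15240 tested genes other than Got2, 0.945% had a lower ratio to Got2 without overlap, and since Got1 was chosen with its low level known, the ratio restates that level against Got2. The ratio of Mdh1 to Mdh2 was 1.87 ± 0.174 in ΔDMR1-U2 and 1.86 ± 0.158 in wild-type, and that of Gpt to Gpt2 was 0.291 ± 0.0351 against 0.273 ± 0.0628, both with overlapping groups. Against Glud1, the ratio was 0.341 ± 0.0195 in ΔDMR1-U2 and 0.553 ± 0.0675 in wild-type for Got1, 2.23 ± 0.207 against 2.86 ± 0.248 for Mdh1 and 1.24 ± 0.0353 against 1.55 ± 0.175 for Slc25a12. The groups did not overlap in these 3 ratios, nor in those of Got2, Mdh2 and Slc25a11 to Glud1, beside 7.15% of the tested genes other than Glud1. The mean CPM of Glud1 was itself 122 ± 6.97 in ΔDMR1-U2, against 115 ± 7.05 in wild-type, the highest log2 fold change of the 10 genes. The genes set over Glud1 were those already lower in CPM without overlap, so these ratios restate their levels against Glud1. Against Gpt2, the ratio of Got1 was 1.15 ± 0.171 in ΔDMR1-U2 and 1.6 ± 0.165 in wild-type, and the groups overlapped, as library 1A of ΔDMR1-U2 reached 1.38 and library 1B of wild-type stood at 1.37.

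In bulk muscle, fewer muscle fibres and less RNA per fibre cannot be told apart, and the summed skeletal muscle markers were themselves 0.894 times the wild-type mean in ΔDMR1-U2. Per 100000 counts of the 10 muscle markers, of which titin (Ttn) made up 58.8% to 61.4%, Got1 was at 24.1, 24.9, 20.1 and 21.6 in the ΔDMR1-U2 libraries (1A, 1B, 2 and 3), against 30.9, 31.5, 31.2 and 29.8 in the wild-type libraries. The groups still did not overlap on this scale, beside 1.39% of tested genes that were lower without overlap on it. Got1 was the only 1 of the 10 genes for which this held. Per 100000 marker counts, Mdh1 was at 148 ± 4.49 in ΔDMR1-U2, against 160 ± 10.2 in wild-type, Got2 had 85.9 ± 5.79 against 87.2 ± 2.55, and Mdh2 had 79.7 ± 9.44 against 86.3 ± 6.74 (SD, n = 4 each). Slc25a11 had 61.4 ± 2.15 against 66.3 ± 3.82 and Slc25a12 had 82.4 ± 8.73 against 86.5 ± 2.25. For these 5 genes the groups overlapped, at 0.922 to 0.985 times the wild-type mean, and for Got1 the mean was 0.735 times that of wild-type. Schwann marker sums were 107 to 168 CPM in ΔDMR1-U2, against 48.7 to 98.0 CPM in wild-type. The brown adipocyte list, mostly Cidea, summed to 17.2 to 32.5 CPM in ΔDMR1-U2, against 11.6 to 12.6 CPM in wild-type. White adipocyte marker sums, mostly Fabp4, were 234 to 602 CPM in ΔDMR1-U2 and 179 to 246 CPM in wild-type, and overlapped. Fabp4 alone was at 198.5 to 435.9 CPM in ΔDMR1-U2, against 150.5 to 180 CPM in wild-type, and was not called. For each other marker of that list the groups overlapped. The part of these 3 lists in the differences of the 10 genes was not tested.

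**Figure D4:**
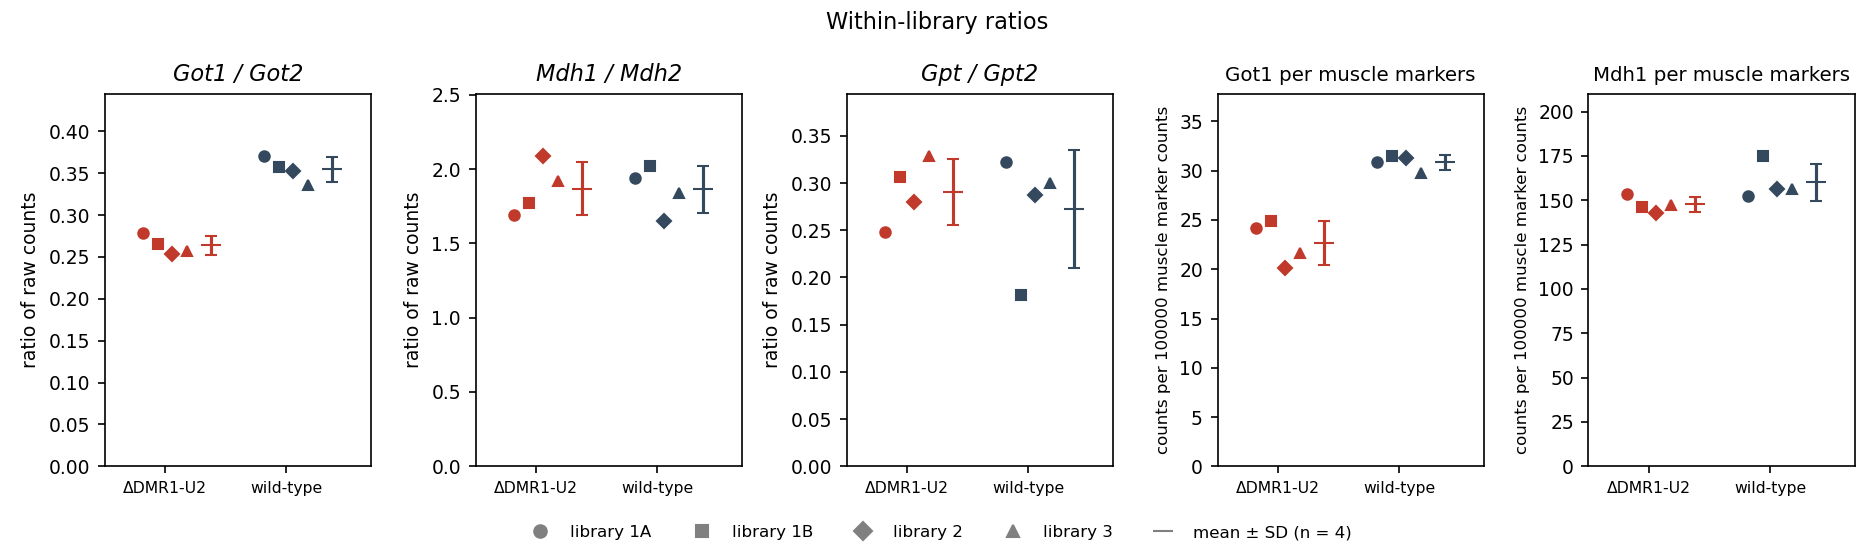
Within-library ratios, ΔDMR1-U2 left and wild-type right, with the mean and SD of 4 libraries: raw count ratios of each cytosolic to its mitochondrial enzyme, and counts of Got1 and Mdh1 per 100000 muscle marker counts. The groups are apart for Got1 to Got2 and for Got1 per marker count, and overlap in the other 3 panels.

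The 5 lists of genes that supply or use the same metabolites held 56 genes, 50 of them tested, and 3 were called lower and 0 higher, against the shares of 0.617% and 0.512% over all genes. All 3 genes of the glycerol phosphate shuttle, the other route for cytosolic NADH into mitochondria, had a log2 fold change below 0. Of them 1 was called lower. This was Gpd2, the mitochondrial glycerol-3-phosphate dehydrogenase, with 33.3, 26.9, 34.5 and 29.0 CPM in ΔDMR1-U2 libraries 1A, 1B, 2 and 3, against 46.9, 44.2, 43.7 and 47.4 CPM in the wild-type libraries. Every ΔDMR1-U2 library was below every wild-type library, and the fitted log2 difference was -0.56, standard error 0.09 (adjusted p = 0.0295, edgeR). Gpd1, its cytosolic partner, named here after its values were seen, had a log2 fold change of -0.68 and missed the threshold (adjusted p = 0.0555, edgeR). Its mean was 73.6 ± 9.13 CPM across ΔDMR1-U2 libraries and 118 ± 24.9 CPM across wild-type libraries.

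Among 13 tested genes of aspartate use and the purine nucleotide cycle, 2 were called lower and 11 were not called. Asns, asparagine synthetase, which takes aspartate as substrate, had 38.5, 47.5, 42.3 and 36.7 CPM in ΔDMR1-U2 libraries 1A, 1B, 2 and 3, against 75.5, 86.9, 61.7 and 50.8 CPM in the wild-type libraries. Wild-type library 3 lay close to the highest ΔDMR1-U2 library, and the fitted log2 difference was -0.74, standard error 0.15 (adjusted p = 0.0475, edgeR). Ampd1, the AMP deaminase of muscle, had 181, 172, 193 and 213 CPM in ΔDMR1-U2, against 304, 239, 248 and 280 CPM in wild-type. Its fitted log2 difference was -0.49, standard error 0.09 (adjusted p = 0.0411, edgeR). Unlike Got1, these 3 genes lost their calls in most fits that left out 1 library. The 8 fits that left out 1 library called 7 to 631 genes in all, against 172 with every library. Gpd2 was called in 3 of 8 such fits, Asns in 3 and Ampd1 in 1, and of these fits only the 1 without ΔDMR1-U2 library 2 called all 3. The call of Gpd2 was lost when ΔDMR1-U2 library 3 or any of the 4 wild-type libraries was left out, and that of Asns without ΔDMR1-U2 libraries 1A or 3 or wild-type libraries 1A, 1B or 2. Without ΔDMR1-U2 libraries 1A and 1B together, the adjusted p was 0.0749 for Gpd2, 0.121 for Asns and 0.169 for Ampd1 (edgeR). With 1 library left out, their log2 fold changes ranged between -0.62 and -0.50 for Gpd2, -0.86 and -0.60 for Asns and -0.55 and -0.43 for Ampd1. Gpd2 overlaps A930012O16Rik, a noncoding transcript, on the opposite strand, and whether reads were counted by strand is not known here.

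In the other 3 lists no gene was called by edgeR. Of 7 tested further aminotransferases, the 2 most abundant were Oat, ornithine aminotransferase, with a log2 fold change of -0.12, and Psat1, the serine synthesis aminotransferase, with -0.36. Of 13 genes of malate and pyruvate metabolism, Ldha, the muscle lactate dehydrogenase subunit, had -0.32 and Ldhb had -0.04. Of 14 genes of glutamate and glutamine handling, Slc38a2, a glutamine transporter, had 0.24 and Glul, glutamine synthetase, had 0.91. Glul stood at 354 CPM in ΔDMR1-U2 library 1B, against 110 to 153 CPM in the other ΔDMR1-U2 libraries and 87.7 to 102 CPM in wild-type, and its log2 fold change without library 1B was 0.37. Unadjusted, 17 of the 50 genes and 6 of the 10 had a p under 0.05, as did 3243 of all 15241.

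**Figure D5:**
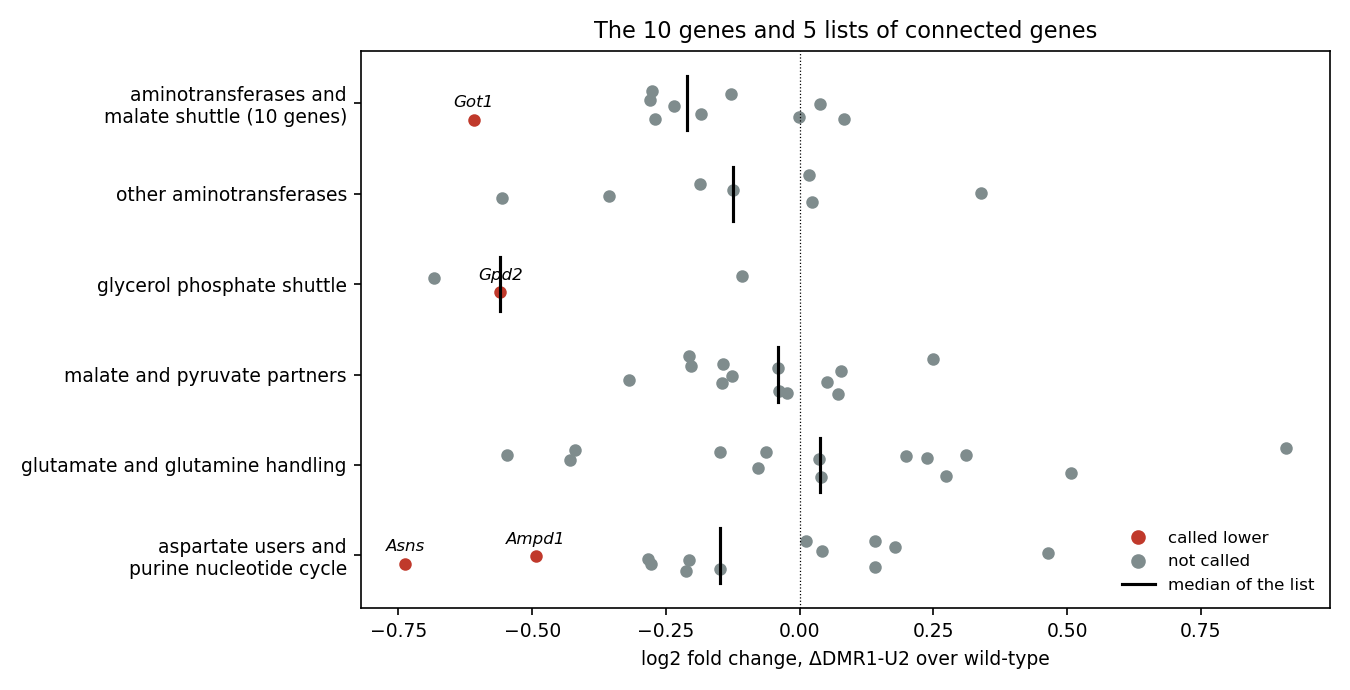
Log2 fold change of ΔDMR1-U2 over wild-type for the 10 genes and for the tested genes of the 5 connected lists, with a bar at each list's median; points are spread vertically only for display. Got1, Gpd2, Asns and Ampd1 are the genes called lower, and the medians run from -0.56 for the glycerol phosphate shuttle to 0.04 for glutamate and glutamine handling.

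Over the 8 libraries, the tested genes whose log2 CPM followed Got1 most closely were Tnnc2, fast troponin C (Pearson r = 0.983), Igf2as, the gene antisense to Igf2 (r = 0.977), Lynx1 (r = 0.967), B230118H07Rik (r = 0.965) and Esr1 (r = 0.964). All 5 were lower in ΔDMR1-U2, 4 of them called, so these values mostly restate the difference between the groups. Among the 10 genes, r with Got1 was 0.915 for Got2, 0.909 for Mdh1, 0.888 for Mdh2, 0.847 for Slc25a12, 0.816 for Slc25a11, 0.424 for Gpt2, 0.143 for Gpt, -0.22 for Slc25a13 and -0.54 for Glud1. With the group means taken out, r with Got1 was 0.637 for Got2, 0.583 for Slc25a12, 0.536 for Gpt, 0.437 for Mdh2, 0.2 for Gpt2, 0.186 for Slc25a11, -0.01 for Mdh1, -0.14 for Slc25a13 and -0.31 for Glud1. The genes that then followed Got1 most closely were Zfp498 (r = 0.975), 2310065F04Rik (r = 0.971), Fam18a (r = 0.955), Dpf3 (r = 0.952) and 1300017J02Rik (r = 0.952), none of them called. The points of each r share libraries and their scaling, and the values describe these 8 libraries.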

How the data were processed

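Per the labels' protocols, ribosomal RNA was removed from total RNA before paired-end Illumina sequencing. The submitters' processing notes name TopHat2 2.0.9 with Bowtie2 2.1.0, HTSeq 0.5.4p3, DESeq2 1.4.5 and FastQC 0.10.1, and the build mm10. Settings, annotation, strand mode and the treatment of reads with several matches: not given in the sources used here. Processed pseudogenes of Got2 and Glud1, and genes overlapping Got2, Mdh1, Slc25a11 and Slc25a12 on the opposite strand, make these 5 genes less certain. Per the file headers, the authors deposited a raw read count per gene and sample, their mean normalised counts as a signal per group, a wild-type over ΔDMR1-U2 fold change as a linear ratio and its log2, and p-values; the direction was read from the values.

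Counts were fitted with edgeR 4.0.16 in R 4.3.3 (limma 3.58.1) over the whole table: filterByExpr at a minimum count of 10, trimmed-mean scaling, quasi-likelihood test, Benjamini-Hochberg adjustment over 15241 genes, calls at an adjusted p under 0.05. The common biological coefficient of variation was 12.3%. CPM use the scaled library sizes, and log2 CPM for likeness had 0.5 added. The procedure was tested on simulated data. Alternatives were DESeq2 1.42.0, another scaling, no filter, a replicate block, and libraries left out. Standard errors and intervals come from the fitted test. Genes named were all 10, every called gene of the 5 lists or else a list's 2 most abundant, and the 5 genes most like Got1. The genes and lists were chosen with earlier results of these data known.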

Additional observations from a re-analysis of the deposited data

Results flagged for a closer look

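Among 72 groups of 4 libraries examined for 1 library far from the rest, no level of the 10 genes and no ratio of a cytosolic to its mitochondrial enzyme stood out, and 7 marker sums did, where about 1 in 20 groups would by chance. In ΔDMR1-U2, library 1B had 602 CPM of white adipocyte markers, against 234 to 266 CPM in its group, and 27.6 CPM of keratinocyte markers, against 12.4 to 13.7 CPM. ΔDMR1-U2 library 3 had 13800 CPM of fibroblast markers, against 15920 to 16323 CPM. Wild-type library 3 had 75.6 CPM of red cell markers, against 31.4 to 33.0 CPM, 332 CPM of macrophage markers, against 259 to 271 CPM, and 3.53 CPM of hepatocyte markers, against 0.844 to 1.07 CPM. Wild-type library 2 had 17.8 CPM of keratinocyte markers, against 11.1 to 11.4 CPM.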

How the results depend on the processing

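The direction and side of the threshold of Got1 were the same in all 13 alternatives, with log2 fold changes of -0.66 to -0.57 and a highest adjusted p of 0.0428 (edgeR), reached with the replicate block. Counts of calls moved more. With DESeq2, 930 genes in all, 4 of the 10 genes lower and 9 of the connected genes were called, against 172, 1 and 3 with edgeR. Without the low-count filter, 5 connected genes were called. With the replicate block, 13 genes in all and 0 connected genes were called, and Got1 was the only call among the 10. ΔDMR1-U2 and wild-type samples of the same replicate name (1A, 1B, 2 or 3) did not deviate together (r of -0.22 to -0.06 over 15241 genes). Of the 4 ΔDMR1-U2 libraries, 0 were closest to the wild-type library of their own name, so the names were not taken as pairs. Libraries 1A and 2 of ΔDMR1-U2 were both closest to wild-type 1B, library 1B to wild-type 3, and library 3 to wild-type 1A. A link through the shared number 1 was not tested. Without ΔDMR1-U2 libraries 1A and 1B, 16 genes in all and 0 connected genes were called. Leaving out 1 library gave 7 (without ΔDMR1-U2 library 3, and also without wild-type 1A) to 631 genes in all (ΔDMR1-U2 library 2), 1 to 2 of the 10 genes lower, 0 of the 10 higher and 0 to 6 connected genes. The highest counts came without ΔDMR1-U2 library 2, when Mdh1 was also called (adjusted p = 0.0479, edgeR). The sign of Gpt turned with other scaling factors (0.00202), without both libraries (0.0158), and in 4 of the 8 fits that left out 1 library, which ran from -0.132 to 0.135. The sign of Slc25a13 turned without wild-type library 2 (-0.0301), and those fits ran from -0.0301 to 0.110. None of these was called, and the cause was not tested. Got2, Mdh1, Mdh2, Slc25a11, Slc25a12 and Gpt2 stayed lower, and Glud1 higher, in all 13 alternatives. Gpt and Slc25a13 had the fewest counts of the 10 genes, at most 270 per library.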
